A study of Mus musculus with 24 samples.

Results

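The infarct of mice treated with insulin-like growth factor 1 (IGF1) was compared between 168 h and 48 h of reperfusion, that is, after and during the infusion of the hormone. The comparison rests on 8 of the 24 arrays of the series, the 4 whose titles name infarct area, IGF1 and 168 h against the 4 that name infarct area, IGF1 and 48 h, and it is described across the 15875 genes that were measured. All mice were male C57BL6/J, their age is not given in the sources used here, and per the labels the left anterior descending coronary artery had been closed for 45 min and then reopened, with buprenorphine given against pain. Total RNA was taken from the anterior wall within the area at risk. The IGF1 mice received 40 ng/g of recombinant IGF1 under the skin at the start of reperfusion and then 1 µg/g daily by osmotic pump over the first 3 days. Vehicle mice, 4 arrays at each of the same times, had received carrier solution and are used here only to show where the time change with IGF1 differed. Their labels name the same 45 min of ischemia, whereas the design text of the series speaks of sham-operated controls; the labels were followed. Since the labels do not say which animal an array came from, the p-values cover the spread among these samples, which may be technical.

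A reperfused infarct heals in overlapping stages. Neutrophils and then monocytes enter and clear dead muscle, resident fibroblasts divide and turn into matrix-producing cells, and the lesion matures into a scar of crosslinked collagen while lymphocytes gather. IGF1 acts through a receptor tyrosine kinase that favours growth and survival and restrains FoxO transcription factors, and a set of binding proteins and proteases governs how much of the hormone is free.

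Levels are log2 signals with the 75th percentile of each array set to 0, so that a step of 1 is a 2-fold change, and they are comparable between arrays for one gene but not between genes. Arrays of the same group correlated across genes with r of 0.9899 to 0.9927, and IGF1 arrays of different times with r of 0.9509 to 0.969 (genes are not independent replicates). Of the 20 cardiomyocyte contractile genes listed as a check of the labelled tissue, all were measured, and all but the atrial gene Myl7 were above background on all 8 arrays. The IGF1 48 h arrays lay on slides 2 and 3 and the IGF1 168 h arrays on slides 1 and 4 (3 of them on slide 1), so slide and time cannot be told apart within these 8 arrays. A fit with slide as a block was possible only through the other groups, and its values are given where they end a call. Both times had arrays on each of the 2 scan days. Since whole tissue was measured, fewer cells of a type and less RNA per cell cannot be told apart in any result that follows.

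At an adjusted p below 0.05 (limma, Benjamini-Hochberg over all genes), 3758 genes were higher at 168 h (23.7% of those tested) and 4028 were lower (25.4%). Among them, 1044 were at least 2-fold higher and 709 at least 2-fold lower. The 4 arrays of each time did not overlap for 3987 genes in the upward direction (25.1%) and 4177 in the downward direction (26.3%). These shares are the background against which the counts of each gene group are to be read. The balance of rises and falls depended on the scaling: quantile normalization gave 4013 higher and 3693 lower, and the 75th percentile of the probes above background on all arrays 4563 and 3406. Within scan day 1 (2 arrays of 48 h and 3 of 168 h) 3155 genes were higher and 3490 lower, and within scan day 2 (2 against 1) 677 and 705. With slide as a fixed block 2405 genes were higher and 3199 lower. Where the count of a list moved by over 1.5 times, its lowest and highest count are added in parentheses, over those 2 scalings, normexp, slide as a fixed block, scan day 1 alone and each of the 8 arrays left out; within scan day 2, with 1 array of 168 h, most list counts were lower.

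Matrix genes were among those with the largest rise, and neutrophil and chemokine genes among those with the largest fall. The 15 largest changes in each direction were taken only from genes past the threshold whose times did not overlap. For these genes the lack of overlap is therefore no separate result. C1qtnf3 (cartducin, a secreted protein first described in cartilage) was at -5.38, -4.76, -5.44 and -5.56 on the 4 arrays of 48 h and at 3.0, 3.40, 2.90 and 3.32 on those of 168 h. It was not well above background on any 48 h array, so its rise is a bound of at least 281-fold on this signal scale (adjusted p = 8.55e-14, fitted log2 difference 8.44). Col8a2, a network-forming collagen, was at -3.73, -3.46, -4.54 and -5.89 at 48 h and 3.0, 1.97, 2.35 and 1.85 at 168 h. The difference was log2 6.70 (SE 0.51, adjusted p = 4.27e-09). Further genes of the 15 with the largest rise were Ecrg4 (6.47), Fmod (6.33), Zfp185 (5.83), Col11a1 (5.74), Comp (5.73), Matn4 (5.61), Cemip (4.84) and Eln (4.78), all in log2. Lrrc15, a myofibroblast surface protein, Angptl7, a secreted angiopoietin-like protein, Cyp26a1, which degrades retinoic acid, the potassium channel gene Kcnma1 and the adenylate kinase gene Ak5 were not well above background on any 48 h array. They rose at least 19.8-, 18.1-, 9.47-, 12.0- and 6.59-fold. At 48 h Col8a2 and Cemip were above background on 3 of the 4 arrays and Zfp185 and Col11a1 on 2, so that the sizes of these differences rest in part on signal below background. A bound sets the brighter group's mean against the lowest signal that counts as above background on each dim array. Where the array's own signal was higher, that signal was used. Each bound holds only for the signal scale used here, and with normexp C1qtnf3 rose by less than its bound. Normexp background correction, which lifts dim signals, gave smaller differences for genes that were dim at one time, for example log2 6.25 for C1qtnf3, 4.91 for Col8a2 and 5.22 for Fmod.

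**Figure D1:**
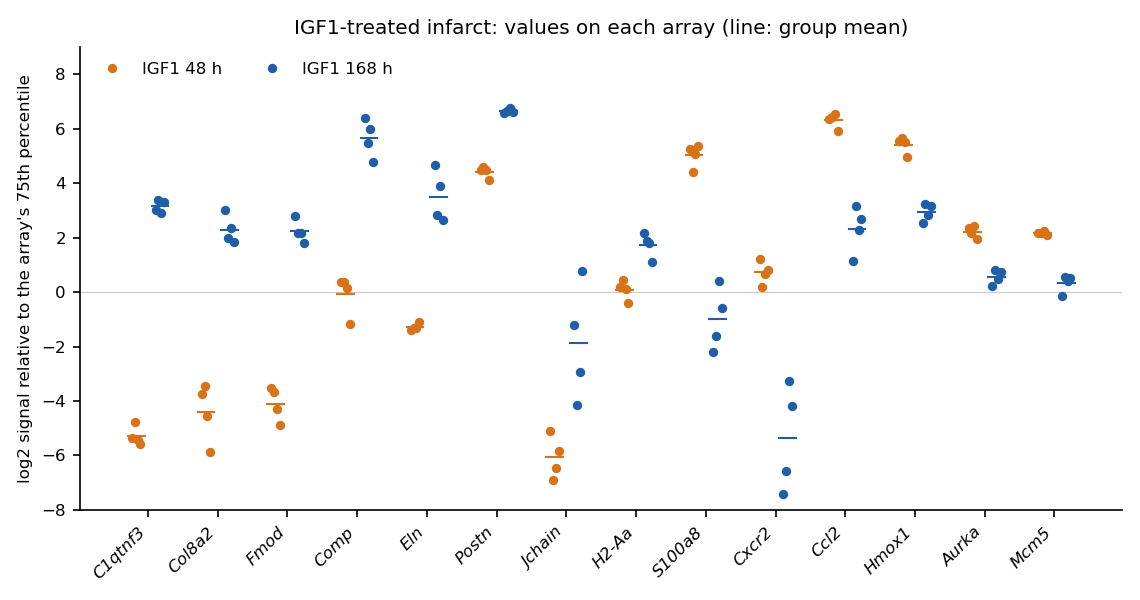
Log2 level on the same scale (vertical axis) of 14 genes on the 4 IGF1 arrays of 48 h (orange) and the 4 of 168 h (blue); lines are group means and levels of different genes are not comparable. The 2 times did not overlap for any of the 14 genes, and Jchain was the most spread, with 168 h arrays from -4.16 to 0.78.

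Neutrophil genes had the lowest median of the 54 lists. Of 18 measured neutrophil genes 0 rose, 13 fell and 5 did not pass, with a median log2 difference of -3.53 (-2.98 with 1 gene at its bound) against 0.0272 over all genes. S100a8, one chain of the calcium-binding alarmin calprotectin, was at 5.26, 4.40, 5.08 and 5.36 at 48 h and -2.22, -1.61, 0.42 and -0.57 at 168 h. All 168 h arrays were lower, by 64.8-fold (log2 -6.02, SE 0.75, adjusted p = 1.78e-06). Its partner S100a9 fell (log2 -6.05). Cxcr2, the receptor that draws neutrophils towards CXC chemokines, was at 1.21, 0.20, 0.66 and 0.81 at 48 h and at -7.40, -6.59, -3.28 and -4.20 at 168 h, where 2 of the 4 arrays were above background. All 168 h arrays were lower (adjusted p = 9.13e-06), and the size of the fitted log2 difference of -6.09 rests in part on the 2 arrays below background. Lcn2, an iron-binding granule protein, fell 29.1-fold, from 4.54, 3.39, 4.22 and 4.55 to -1.34, -0.87, -0.40 and -0.13. The gelatinase Mmp9 (-4.69), the neutrophil collagenase Mmp8 (-3.26), the decoy receptor Il1r2 (-4.71) and Retnlg (-4.93) fell as well. The 5 that did not pass were the granule genes Ltf (-0.94) and Camp (0.45), with Ly6g, Trem1 and Csf3r. At 168 h Mmp9 was above background on 3 arrays and Retnlg on 2. The stefin genes Stfa2l1, Cstdc4, Stfa2 and Cstdc5 had log2 differences of -6.36, -6.35, -5.52 and -4.84, but they are near-identical copies whose probes may share targets, and at 168 h each was above background on 1 or 2 arrays, so that the sizes rest in part on signal below background. The mean level of the neutrophil genes ranged from 0.59 to 1.11 over the 48 h arrays and from -2.98 to -1.60 over those of 168 h. The erythrocyte genes lay between -0.84 and 0.31 at 48 h and between -2.72 and -1.16 at 168 h, and 0 of their 7 measured genes passed the test; the part of blood content in the neutrophil result was not tested.

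Of 17 chemokine and inflammatory mediator genes 14 were lower (9 to 14) and 0 higher, and the median log2 difference was -1.78. With slide as a fixed block 9 were lower, and the arrays of the times did not overlap for 11 of them. Ccl2, which recruits monocytes through Ccr2, was at 6.34, 6.44, 6.56 and 5.93 at 48 h and 1.13, 3.17, 2.29 and 2.69 at 168 h. It fell 16-fold (log2 -4.0, SE 0.29, adjusted p = 2.27e-09), and Ccl7, a second Ccr2 ligand, fell 20.1-fold. The Cxcr2 ligands Cxcl1 and Cxcl5 fell (log2 -2.84 and -3.19). Cxcl3 and Cxcl2 were not well above background on any 168 h array and fell at least 12.9- and 3.46-fold, and Ppbp, a platelet-derived chemokine of the same class, fell (log2 -4.94). Il1b, the central cytokine of the inflammasome, fell (log2 -1.34, adjusted p = 0.0115; 0.245 with slide as a fixed block, and above 0.05 without replicate 1 of 48 h or replicate 2 of 168 h). Il6 was at 1.59, 0.31, 0.34 and -0.71 at 48 h and -0.73, -1.13, -0.08 and -0.29 at 168 h. The arrays overlapped, the difference was log2 -0.94 (adjusted p = 0.0266), and it was log2 -0.68 with an adjusted p of 0.285 with slide as a fixed block. The Il6 call was also lost with the 8 compared arrays alone and without replicate 1 of 48 h, replicate 1 of 168 h or replicate 2 of 168 h. Tnf and Il11 had log2 differences of -0.57 and -0.71 and did not pass.

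Monocyte and macrophage genes divided. Among 15 inflammatory monocyte genes 6 fell (3 to 6) and 3 rose: the chitinase-like Chil3 fell from 5.01, 4.85, 5.30 and 5.40 to -2.97, 0.47, -0.47 and 1.41 (log2 -5.53, adjusted p = 2.37e-06) and Ifitm6 fell (log2 -2.21). Of 20 genes of resident and reparative macrophages 8 rose and 8 fell. Cx3cr1, the fractalkine receptor, was at 0.88, 0.96, 0.80 and 0.74 at 48 h and at 2.98, 2.64, 2.99 and 2.71 at 168 h, all of them higher (3.95-fold, adjusted p = 4.47e-06). The growth factor receptor Csf1r (1.09), the macrophage antigen Adgre1 (0.85), Gas6 (1.07), which bridges dying cells to phagocytes, and the C1q chains C1qa, C1qb and C1qc (0.75, 0.66 and 0.85) also rose. The scavenger receptors Cd163 (-1.28), Mrc1 (-0.70), Stab1 (-0.52) and Lyve1 (-0.87) fell, as did Pf4 (-2.33) and F13a1 (-1.48). Among 13 genes of alternative activation 3 rose (1 to 3) and 5 fell (3 to 5); arginase 1, Arg1, fell from 2.63, 2.94, 2.76 and 2.44 to -0.71, -2.02, -0.36 and -0.28 (log2 -3.54, adjusted p = 0.00406). With slide as a fixed block the calls of Arg1, Ifitm6 and Cd163 were lost (adjusted p = 0.117, 0.0833 and 0.0714), that of Cd163 also within scan day 1.

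Genes of lipid-handling and lysosomal macrophages moved in both directions, with 7 of 20 higher, 9 lower (3 to 9) and a median of -0.02. The lower genes were 3 with slide as a fixed block, 3 within scan day 1, 1 within scan day 2, 4 with quantile normalization and 4 without replicate 1 of 168 h. Gpnmb, a glycoprotein of lipid-laden macrophages, was at 0.12, 0.53, 0.88 and -0.26 at 48 h and 1.34, 4.02, 1.95 and 2.52 at 168 h. Every 168 h array was above every 48 h array, by log2 2.14 on average (SE 0.39, adjusted p = 0.000137). Atp6v0d2, a subunit of the lysosomal proton pump, went from -3.50, -3.42, -3.36 and -4.27 to -3.44, 0.50, -1.73 and -1.65 (log2 2.06, adjusted p = 0.00359); replicate 1 of 168 h lay among the 48 h arrays and the call was lost within scan day 1. The lipid carrier gene Apoe, the cholesterol exporter Abca1, the collagen-degrading Ctsk and the lipid-sensing receptor Trem2 rose by log2 1.76, 0.89, 1.92 and 0.68. Spp1, which encodes osteopontin, was at 6.50, 6.81, 6.51 and 6.23 at 48 h and 3.27, 7.10, 4.58 and 5.85 at 168 h. It fell (log2 -1.31, adjusted p = 0.0264), and the 168 h arrays spanned 3.27 to 7.10 while the 48 h arrays lay within 6.23 to 6.81. The Spp1 call was lost with slide as a fixed block (adjusted p = 0.205), within scan day 1, with the 8 compared arrays alone, and without replicate 2 of 48 h, replicate 1 of 168 h or replicate 3 of 168 h. The lipid droplet coat Plin2 and the lysosomal protease Lgmn fell (log2 -1.21 and -0.53).

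Most antigen-presenting, T cell and NK cell genes rose, while B and plasma cell genes moved in both directions. Of the 15 dendritic cell and MHC class II genes 12 rose and 0 fell; H2-Aa, an MHC class II alpha chain, went from 0.19, 0.44, 0.13 and -0.39 at 48 h to 2.16, 1.87, 1.79 and 1.11 at 168 h, 3.12-fold higher (adjusted p = 4.69e-06). The class II regulator Ciita and the invariant chain Cd74 rose by log2 1.35 and 1.45, and Clec9a, a receptor of cross-presenting dendritic cells and above background on 1 array of 48 h, by log2 2.10. Of 12 T cell genes, of which 1 was not well above background on any 48 h array, 10 rose and 0 fell, among them Cd5 (log2 2.21), the receptor chain Cd3d (1.46) and the kinase Lck (1.27). Of 11 NK cell and cytotoxic genes 10 rose and 0 fell. Of these, 4 (Eomes, Gzmb, Klrb1c and Tbx21) were not well above background on any 48 h array and so were measured through brighter groups, and the list's median of log2 2.0 was 1.12 with them at their bound. Nkg7, a cytotoxic granule protein, was at -3.34, -4.12, -3.73 and -4.25 at 48 h and -1.11, -0.87, -1.32 and -1.32 at 168 h, without overlap (log2 2.71, SE 0.21, adjusted p = 4.6e-09). The chemokine Ccl5 and granzyme Gzma rose by log2 2.51 and 1.97, and Gzmb, not well above background at 48 h, at least 1.89-fold; perforin, Prf1, did not pass (-0.02). Of 10 B and plasma cell genes 3 rose and 3 fell (1 to 4). Of the 10, Jchain and Mzb1 were not well above background on any 48 h array and so were measured through brighter groups. Jchain, which joins secreted IgA and IgM, went from -5.11, -6.88, -6.46 and -5.85 at 48 h, below background, to -1.21, -4.16, -2.93 and 0.78 at 168 h, a rise of at least 8.63-fold (adjusted p = 0.000295). Eosinophil and mast cell genes rose in 3 of 7 measured cases, fell in 1 and did not pass in 3. The mast cell proteases Mcpt4 and Cma1 rose by log2 1.46 and 1.23, and Siglecf, carried by eosinophils and above background on 3 arrays of 168 h, fell (log2 -3.64).

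Of 18 complement genes 13 rose and 2 fell (2 to 4). C2, a protease of the classical pathway, rose 9.32-fold, C3 by log2 1.98, factor B, Cfb, by log2 2.35 and the inhibitor Serping1 by log2 1.90, while the anaphylatoxin receptor C5ar1 and properdin, Cfp, fell (log2 -1.19 and -1.21). Of 18 genes of interferon gamma and MHC class I 8 rose (5 to 11) and 0 fell, with H2-K1 higher by log2 1.09 and Cxcl9 by 1.85. Of 21 type I interferon-stimulated genes 8 rose (5 to 17) and 0 fell, with Irf7 higher by log2 1.09 and Ifit3 by 1.12, but the arrays of the times overlapped for every type I gene (0 of 21 apart). The mean level of the type I list spanned 0.29 to 1.38 at 48 h and 0.85 to 1.35 at 168 h. Its rises were 5 with slide as a fixed block, 15 within scan day 1, 0 within scan day 2 and 17 without replicate 4 of 48 h.

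Genes of cell division fell. All but 1 of the 26 mitosis genes fell (25 of 26, median log2 -1.38), the exception being Kif11 (-0.88), and 24 of 24 DNA replication genes fell (median -1.38). Aurka, a mitotic spindle kinase, was at 2.34, 2.18, 2.42 and 1.93 at 48 h and 0.23, 0.79, 0.50 and 0.75 at 168 h. The times did not overlap, and the difference was log2 -1.65 (SE 0.26, adjusted p = 2.31e-05). Cdca8, a subunit of the chromosomal passenger complex, and Cdc20, which activates the anaphase-promoting complex, fell (log2 -1.57 and -1.49). Mcm5, a subunit of the replicative helicase, went from 2.19, 2.19, 2.24 and 2.08 to -0.14, 0.56, 0.41 and 0.53 (log2 -1.83, adjusted p = 1.51e-08), and Cdc6 and Mcm3, which load and form the same helicase, fell (log2 -1.69 and -1.52).

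Many cell-cycle promoters carry a CCAAT box with a CHR element (TTTGAA), bound in mitosis genes, or an E2F site (TTTGGCGC or TTTCCCGC), bound in replication genes. These letters were searched on both strands of the RefSeq promoter windows of GRCm38.p6, 300 bases that lie mostly upstream of the start, 1 window per gene. CCAAT was present in 18 of the 21 mitosis genes with a window (85.7%) and in 37.9% of all 27025 windows. TTTGAA was present in 16 (76.2%) and in 18.1% of all windows. TTTGGCGC was found in 4 of the 19 replication genes with a window (21.1%, all windows 0.537%) and TTTCCCGC in 3 (15.8%, all windows 1.11%). A match is a description of the letters, not a site. Windows of members that fell are shown 5′ to 3′ on the gene's strand, with each match on either strand in capitals: for mitosis those of Cdca8 (chr4:124936868-124937167, minus strand), Aurka (chr2:172370521-172370820, minus strand) and Cdc20 (chr4:118437294-118437593, minus strand), which hold both motifs, and for replication Mcm3 (chr1:20820263-20820562, minus strand), which holds both E2F motifs near its start. In Cdca8 the TTTGAA and a reversed CCAAT share 1 letter; the motifs do not otherwise overlap in these windows.
Cdca8: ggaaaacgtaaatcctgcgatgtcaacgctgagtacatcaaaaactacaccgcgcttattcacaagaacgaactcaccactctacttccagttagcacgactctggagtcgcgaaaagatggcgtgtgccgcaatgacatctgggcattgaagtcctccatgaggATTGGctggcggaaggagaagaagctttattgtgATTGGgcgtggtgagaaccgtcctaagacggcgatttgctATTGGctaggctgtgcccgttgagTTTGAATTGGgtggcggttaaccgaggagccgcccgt
Aurka: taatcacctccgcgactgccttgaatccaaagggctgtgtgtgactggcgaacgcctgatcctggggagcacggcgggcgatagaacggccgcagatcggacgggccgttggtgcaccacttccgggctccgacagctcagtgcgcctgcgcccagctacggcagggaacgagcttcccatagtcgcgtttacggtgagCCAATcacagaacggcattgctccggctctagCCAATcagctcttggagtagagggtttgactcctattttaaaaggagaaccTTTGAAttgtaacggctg
Cdc20: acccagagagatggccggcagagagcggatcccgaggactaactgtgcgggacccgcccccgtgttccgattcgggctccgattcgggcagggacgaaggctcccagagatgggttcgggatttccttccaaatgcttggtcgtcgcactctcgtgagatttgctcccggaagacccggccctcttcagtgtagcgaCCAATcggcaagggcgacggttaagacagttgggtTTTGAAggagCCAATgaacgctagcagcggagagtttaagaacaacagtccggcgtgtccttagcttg
Mcm3: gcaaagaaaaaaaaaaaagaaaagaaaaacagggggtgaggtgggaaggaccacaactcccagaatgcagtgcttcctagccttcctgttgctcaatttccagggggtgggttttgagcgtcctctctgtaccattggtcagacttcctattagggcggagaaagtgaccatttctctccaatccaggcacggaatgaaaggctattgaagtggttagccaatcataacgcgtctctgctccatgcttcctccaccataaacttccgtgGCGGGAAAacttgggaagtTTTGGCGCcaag

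Growth-related synthesis fell in parallel. All 20 measured ribosome biogenesis genes were lower (20 of 20, median log2 -1.01). The nucleolar helicase Ddx21 was at 1.54, 1.70, 1.66 and 1.65 at 48 h and -0.20, -0.07, -0.15 and 0.01 at 168 h (log2 -1.74, adjusted p = 7.44e-09), and the snoRNP gene Nop58 fell (log2 -1.50). Myc, a transcription factor that drives both division and ribosome production, fell 3.54-fold, from 0.61, 0.47, 0.56 and 0.45 to -1.50, -1.34, -1.20 and -1.15 (adjusted p = 7.78e-09). The AP-1 component Fosl1 fell (log2 -4.01, above background on 2 arrays of 168 h) within 23 immediate early and ERK feedback genes of which 5 rose (2 to 5) and 6 fell. Of 27 chaperone and endoplasmic reticulum stress genes 20 fell and 1 rose (0 to 1); Hspa5, the chaperone BiP, fell (log2 -0.91), as did Sdf2l1 (-1.95) and Manf (-1.29), while Ddit3, which encodes CHOP, rose by log2 0.58 (adjusted p 0.131 with slide as a fixed block). Cholesterol synthesis genes fell in 13 of 19 cases and rose in 0, with Sqle, the squalene epoxidase gene, at log2 -1.09. Among antioxidant genes 9 of 20 fell, including Gsr (-1.30) and Txnrd1 (-1.05), and the extracellular enzymes Gpx3 and Sod3 rose by log2 1.05 and 0.87. Hmox1, which degrades heme, was at 5.55, 5.67, 5.50 and 4.95 at 48 h and 2.53, 3.25, 2.83 and 3.18 at 168 h and fell 5.55-fold (adjusted p = 2.13e-09); the metallothionein Mt2 fell (log2 -1.64).

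Scar matrix genes rose in nearly every class. Of 15 fibrillar and beaded-filament collagen genes 14 rose and 0 fell (median log2 1.56); Col5a3 was the one that did not pass (-0.23). Col1a1, the main collagen of scar, was at 6.20, 6.08, 6.03 and 5.66 at 48 h and 7.16, 7.0, 7.13 and 7.36 at 168 h, 2.25-fold higher without overlap (adjusted p = 2.13e-06). Col3a1 rose by log2 0.72, Col5a2 by 1.67, Col14a1 by 3.34 and Col11a1, a cartilage collagen, by 5.74. Basement membrane genes rose in 14 of 16 cases by smaller amounts (median 0.60; Nid1 1.22, Lama2 1.37). In the elastic fibre and crosslinking list 18 of 25 rose and 1 fell. Eln, which encodes elastin, was at -1.39, -1.33, -1.31 and -1.10 at 48 h and at 4.66, 2.82, 3.89 and 2.64 at 168 h, so that the lowest 168 h array lay far above the highest of 48 h (log2 4.78, SE 0.32, adjusted p = 1.01e-09). The microfibril genes Mfap4, Mfap2 and Fbn1 rose by log2 3.60, 3.08 and 0.97, fibulin 5, Fbln5, by 3.22, and the collagen crosslinking enzymes Lox and Plod2 by 1.34 and 1.35. Efemp1 fell (-1.15).

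Of 16 proteoglycan and hyaluronan genes 9 rose, 4 fell and 3 did not pass. Among the small leucine-rich proteoglycans, which space collagen fibrils, Fmod went from -3.53, -3.67, -4.29 and -4.89 to 2.79, 2.18, 2.16 and 1.81 (80.5-fold, adjusted p = 2.64e-10), and Aspn, Omd, Prelp, Lum, Ogn and Dcn rose by log2 3.24, 3.12, 2.65, 2.28, 2.22 and 1.27. The hyaluronan synthases Has1 and Has2 and lubricin, Prg4, fell (log2 -0.88, -0.97 and -2.20). Of 17 genes of late scar fibroblasts and cartilage matrix 16 rose and 1, Prg4, fell, with a median of log2 3.31 (2.52 with the 3 genes not well above background at 48 h at their bound). Comp, a cartilage thrombospondin, was at 0.38, 0.38, 0.13 and -1.19 at 48 h and 6.40, 5.46, 5.97 and 4.79 at 168 h (log2 5.73, adjusted p = 5.53e-09). Thbs4, Sfrp2 and the aggrecan gene Acan rose by log2 3.13, 3.31 and 2.44, and Cilp2 and the BMP inhibitor Chrdl1, both not well above background at 48 h, at least 5.73- and 2.85-fold. Among matricellular genes Postn, which encodes periostin, went from 4.47, 4.59, 4.47 and 4.11 to 6.59, 6.66, 6.76 and 6.62 (4.75-fold), Ccn3 and Thbs2 rose by log2 3.55 and 2.84, and tenascin C, Tnc, fell (log2 -0.84). The call of Has1 was lost within scan day 1, and those of Has1 and Tnc with slide as a fixed block (adjusted p = 0.0576 and 0.213). Matrix protease genes moved in both directions: Mmp2 (2.76), Mmp14 (0.96), Mmp11 (1.37) and the inhibitors Timp2 (1.84) and Timp3 (1.86) rose, whereas Mmp3 (-2.68), Mmp8, Mmp9, Adamts4 (-1.33) and Timp1 (-1.07) fell.

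Fibroblast genes rose more often than they fell. Of 17 activated fibroblast and myofibroblast genes 13 rose and 1 fell (0 to 2); Cthrc1, a marker of matrix-secreting fibroblasts, was at 2.99, 2.83, 2.66 and 2.19 at 48 h and 5.51, 5.30, 5.54 and 5.37 at 168 h (log2 2.76, adjusted p = 9.75e-09), and Cilp, Ddah1, Ltbp2 and Fap rose by log2 3.22, 3.08, 2.46 and 1.52. Acta2, the smooth muscle actin of contractile myofibroblasts, was at 5.44, 5.66, 5.57 and 5.55 and 5.35, 5.62, 5.66 and 5.56 (log2 0.00, SE 0.10) and did not pass. Resting fibroblast genes rose in 7 of 15 cases and fell in 3 (1 to 3): Pi16, Dpt and the transcription factor Tcf21 rose by log2 2.55, 1.95 and 1.33, and Hsd11b1, which activates glucocorticoids, fell (log2 -1.15). In the TGF-beta and BMP list 12 of 24 rose (7 to 13; 7 without replicate 1 of 168 h) and 6 fell. Of the ligands, Tgfb3 rose 5.66-fold and Bmp4 by log2 1.41, the activin subunit gene Inhbb fell (log2 -0.83), and Tgfb1 and Tgfb2 did not pass (-0.03 and -0.37). Secreted Wnt modulators rose in 12 of 16 cases with none falling (0), among them Dkk3 (log2 4.37), Frzb (2.74) and Sfrp1 (2.85). Axin2, a target gene of the pathway, was not well above background at 48 h and rose at least 1.67-fold.

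**Figure D2:**
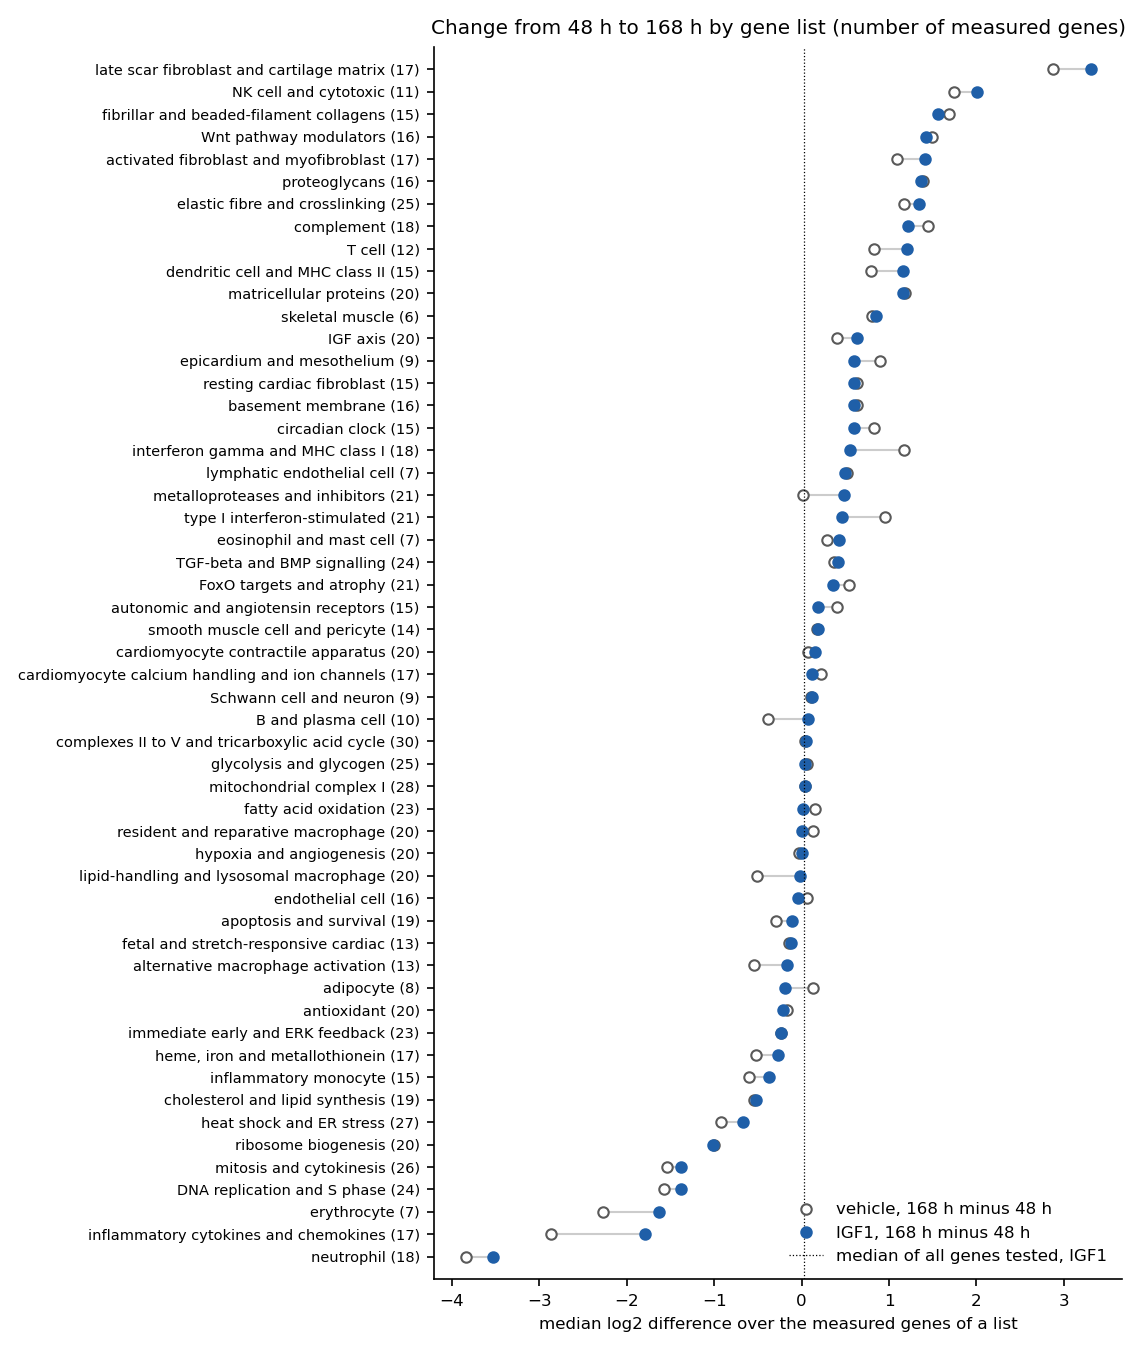
Median log2 difference between 168 h and 48 h (horizontal axis) over the measured genes of each of 54 lists, with IGF1 as filled and vehicle as open circles. With IGF1 the medians ran from -3.53 for neutrophil genes to 3.31 for late scar genes, and the median of all genes was 0.0272.

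Few mitochondrial genes passed the test, while contractile genes did so about as often as all genes. Of 20 contractile genes 7 rose (0 to 7) and 2 fell (median log2 0.15), and with slide as a fixed block 0 rose and 2 fell. Myh6, the adult alpha myosin heavy chain, was at 7.82, 8.05, 7.68 and 7.77 at 48 h and 7.94, 7.78, 7.96 and 8.29 at 168 h, a log2 difference of 0.16 (SE 0.14, adjusted p = 0.385). The atrial light chain Myl7, above background on 1 of the 4 arrays of 48 h, rose by log2 2.04, and Cryab, a small heat shock protein of the Z-disc, and Csrp3 fell (log2 -0.97 and -0.66). Calcium handling and channel genes held 2 rises (1 to 4) and 3 falls (1 to 3) among 17 (Kcnip2, a potassium channel subunit gene, 1.67). Among the fetal and stretch-responsive genes the beta myosin Myh7 and skeletal actin Acta1 rose by log2 1.60 and 1.22, and Fhl1, Flnc and Xirp1, which respond to filament strain, fell (log2 -1.26, -1.19 and -1.12). Of the 23 fatty acid oxidation genes 0 rose (0 to 2) and 3 fell (0 to 3). Of 28 complex I genes 0 rose (0 to 6) and 0 fell, and of 30 genes of complexes II to V with the citrate cycle 2 rose (0 to 5) and 0 fell, shares under those of all genes. The mean level of the complex I genes was 5.69 to 5.75 on the 48 h arrays and 5.54 to 5.87 on the 168 h arrays, which enclose the former. Glycolysis genes fell in 9 of 25 cases and rose in 3 (0 to 8): the glucose transporter Slc2a1 and the enzyme Pgam1 fell (log2 -1.13 and -1.06), and the muscle enzyme Pfkm rose by 0.68. The calls of Myl7, Myh7 and Pfkm were lost with slide as a fixed block (adjusted p = 0.119, 0.0667 and 0.0814). The skeletal muscle marker Pvalb rose by log2 2.05, Mylpf and Tnni2 did not pass (-0.35 and -0.13), and Myh1, Myh2 and Myh4 did not pass the filter on dim probes; 4 of the 6 measured rose (2 to 4) and the list's mean level went from -0.29 to 0.19 at 48 h to 0.64 to 0.91 at 168 h. Their part in the cardiomyocyte values was not tested.

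As reported, a smaller share of endothelial genes passed than of all genes (23.7% higher and 25.4% lower). Of 16 endothelial genes 2 rose (1 to 4) and 1 fell (1 to 2; Kdr 0.54, Flt1 -0.34), and Pecam1 and Cdh5 did not pass (-0.20 and 0.11). Of 7 lymphatic genes 4 rose and 2 fell; Mmrn1 and Reln rose by log2 1.52 and 1.30, and Pdpn and Lyve1, which other cells also carry, fell (log2 -1.17 and -0.87). The pericyte gene Rgs5 rose by log2 0.68 among 14 smooth muscle and pericyte genes (5 higher, 3 to 6; 0 lower). The angiogenic peptides Apln and Pgf fell (log2 -1.99 and -1.80), Esm1 and the receptor Aplnr rose by 1.46 and 0.98, and Vegfa did not pass (0.36). Of 9 epicardial and mesothelial genes 5 rose (3 to 5) and 1 fell. Of the 9, Lrrn4 and Upk3b were not well above background on any 48 h array and so were measured through brighter groups. Msln, which encodes mesothelin and was above background on 2 arrays of 48 h, was at -5.57, -5.81, -1.18 and -4.25 at 48 h and -0.20, -1.30, 0.63 and -0.52 at 168 h, so that the times overlapped (log2 3.86, adjusted p = 0.00629, and 0.14 with slide as a fixed block). Upk3b, not well above background at 48 h, rose at least 1.71-fold, and Aldh1a2, which makes retinoic acid in the epicardium, fell (log2 -2.08). Of 9 Schwann cell and neuron genes 3 rose (1 to 3) and 1 fell (0 to 1).

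Of 20 measured genes of the IGF axis 13 were higher at 168 h (7 to 13) and 3 lower (1 to 3), and with vehicle 9 were higher and 2 lower; 0 had an unadjusted p below 0.05 for the difference between the treatments. Igf1, the endogenous ligand, was at 2.03, 1.95, 1.95 and 1.55 at 48 h and 3.14, 3.43, 3.10 and 3.05 at 168 h; all 168 h arrays were higher, by 2.48-fold (SE of log2 0.16, adjusted p = 1.42e-06). Igf2 was higher by log2 0.42 (adjusted p = 0.0316). The receptor Igf1r, which carries the signal, was at 1.81, 1.88, 1.43 and 1.70 at 48 h and 1.19, 0.83, 1.16 and 0.66 at 168 h and fell (log2 -0.75, SE 0.16, adjusted p = 0.000678). Igf2r, which clears IGF2, rose by 0.28, and Insr had a log2 difference of 0.14 and did not pass. The adaptor Irs1 rose by log2 1.30 and Grb10, which dampens receptor signalling, by 0.55, and Irs2 did not pass (0.00).

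The measured binding protein genes rose except for Igfbp3. Igfbp6, which prefers IGF2, went from 1.90, 1.64, 1.84 and 1.42 to 3.47, 3.68, 3.74 and 3.96 (4.04-fold, adjusted p = 8.7e-10). Igfbp4 was at -0.22, -0.28, -0.03 and -0.60 at 48 h and 1.64, 1.29, 1.47 and 1.31 at 168 h (3.27-fold, adjusted p = 2.16e-08). Neither gene's times overlapped. Igfbp2, above background on 1 array of 48 h, Igfbp5 and Igfbp7 rose by log2 1.99, 0.95 and 0.71, and Igfbp3, the main carrier in serum, fell (log2 -0.64, adjusted p = 0.0181). The proteases that cut binding proteins, Pappa and Pappa2, were higher, Pappa by log2 0.75 and Pappa2, above background on 0 arrays of 48 h and 2 of 168 h, at least 1.06-fold. Of the stanniocalcins that inhibit them, Stc2 rose by log2 2.64 and Stc1 fell (log2 -0.41). Igfals and Htra1 did not pass (0.38 and 0.30). With slide as a fixed block 7 of the 20 were higher and 2 lower, and the calls of Igf2, Igf2r, Grb10, Igfbp2, Igfbp3, Igfbp5 and Pappa2 were lost (adjusted p = 0.768, 0.123, 0.207, 0.0622, 0.138, 0.278 and 0.06). Leaving out replicate 1 or 4 of 48 h ended the calls of Igf2 and Igfbp3, replicate 4 of 48 h those of Pappa and Stc1, replicate 1 or 2 of 168 h that of Igf2, replicate 2 of 168 h that of Stc1 and replicate 4 of 168 h that of Igfbp3; averaging the probes of a gene ended those of Igf1r and Igf2, and normexp those of Igf2, Pappa2 and Stc1. Within scan day 1 the calls of Igf2, Igf2r, Grb10, Igfbp2, Igfbp3, Igfbp5, Pappa and Stc1 were lost. FoxO targets, which IGF1 signalling restrains, rose in 11 of 21 cases (5 to 12) and fell in 1 (0 to 2), with a median of log2 0.36. With vehicle, without recombinant IGF1, 12 rose and 0 fell with a median of 0.55, and 0 had an unadjusted p below 0.05 for the difference. Fbxo32, an atrophy ubiquitin ligase, was at 1.55, 1.31, 1.07 and 0.96 at 48 h and 2.50, 2.19, 2.23 and 2.24 at 168 h (log2 1.07, adjusted p = 0.000876), and Ccng2, Sesn1, Txnip and Cdkn1b rose by log2 1.03, 1.11, 0.92 and 0.65. Pdk4 and Trim63 did not pass (0.73 and -0.21), and with slide as a fixed block 5 FoxO genes were higher and 2 lower (adjusted p 0.107 for Fbxo32 and 0.233 for Txnip).

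**Figure D3:**
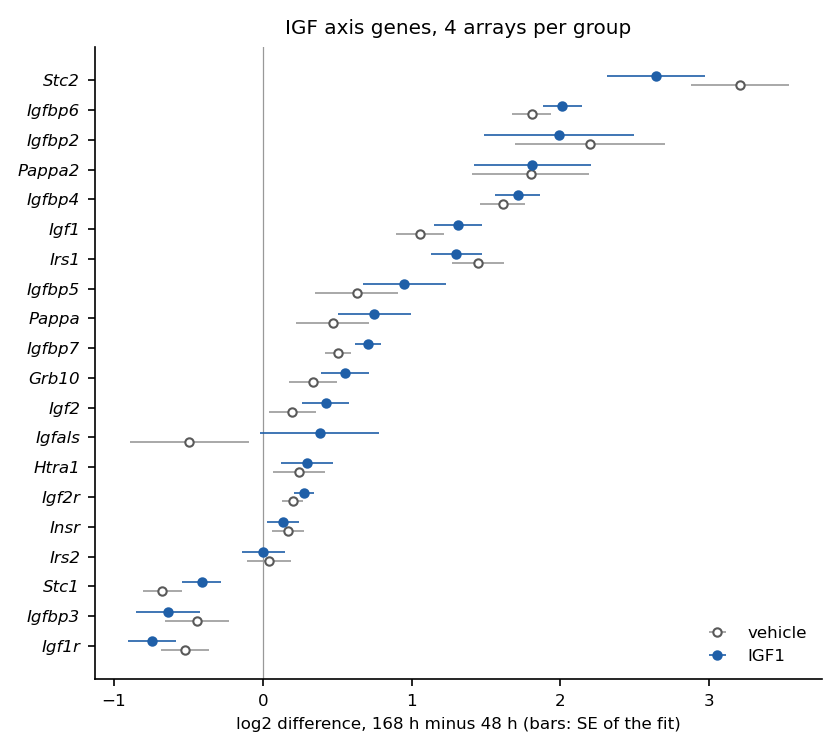
Log2 difference between 168 h and 48 h (horizontal axis, bars are the SE of the fit) for the 20 measured IGF axis genes, with IGF1 as filled and vehicle as open circles. Stc2 (2.64) and Igfbp6 (2.01) lie at the upper end and Igf1r (-0.75) at the lower end with IGF1, and the vehicle values lie within 0.88 of them.

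Apoptosis and clock genes rose about as often as all genes (23.7%). As reported, apoptosis genes fell somewhat more often than all genes (25.4%), with a count that moved between settings. Of 19 genes of apoptosis and survival 5 rose (3 to 5) and 7 fell (4 to 8), with the BH3-only gene Bbc3 and the survival gene Bcl2 higher by log2 1.07 and 0.79, and Bcl2l1, Bak1 and the necroptosis kinase gene Ripk3 lower (log2 -0.89, -0.72 and -0.87). Of 15 circadian clock genes 4 rose (0 to 5), Nr1d1 by log2 1.16. The hour of day of sampling is not given in the sources used here, and with slide as a fixed block 0 of them were called. Ace, which makes angiotensin II, rose by log2 1.49, and the endothelin receptor gene Ednrb and the muscarinic receptor gene Chrm2 fell (log2 -0.85 and -0.67).

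The same time change with vehicle gave 4147 higher (26.1%) and 4312 lower genes (27.2%), and 6546 genes passed in both treatments with the same sign, which is 84.1% of the IGF1 calls and 77.4% of the vehicle calls; 8 passed with opposite signs. In both treatments most arrays of 168 h lay on slide 1, and no array of 48 h did. The part of slide in what the treatments share was not tested. Across all 15875 genes, which are not independent, the 2 time changes, which share no arrays, correlated with r = 0.915. The difference between them was tested gene by gene, and 0 of 15875 genes (0%) passed after adjustment (smallest adjusted p 0.156), while 1095 (6.9%) had an unadjusted p below 0.05. No gene named in what follows therefore passed for the difference, and the values are a description.

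An unadjusted p below 0.05 for the difference was reached by 16 of 20 lipid-handling macrophage genes, 9 of 18 interferon gamma genes, 7 of 17 cytokine genes and 7 of 20 genes of resident and reparative macrophages. Inflammatory monocyte genes reached it in 5 of 15 cases, and all genes in 6.9%. For 18 of the 20 lipid-handling macrophage genes the log2 change was more positive with IGF1, against 49.3% of all genes; their median with vehicle was -0.51 (2 higher, 13 lower). Gpnmb was at 1.43, 0.90, 0.93 and 0.91 at 48 h and 0.77, 0.96, 0.75 and 0.35 at 168 h with vehicle, a log2 change of -0.34 beside 2.14 with IGF1 (difference 2.48, SE 0.56, unadjusted p = 0.000227, adjusted p = 0.189). Within scan day 1 that difference was 2.45, and within scan day 2, with 1 array of 168 h per treatment, it was 2.79. Spp1 was at 6.93, 6.41, 6.61 and 6.41 at 48 h and 2.46, 2.33, 2.26 and 2.37 at 168 h with vehicle and changed by -4.23 beside -1.31 (difference 2.92, SE 0.67, adjusted p = 0.189). Atp6v0d2 and the macrophage elastase gene Mmp12 changed by -0.84 and -1.78 with vehicle and by 2.06 and 0.53 with IGF1. The 168 h arrays were spread more widely with IGF1, where Spp1 had an SD of 1.64 and Gpnmb of 1.15, than with vehicle, where they were 0.08 and 0.26 (4 arrays each). On the 4 IGF1 arrays of 168 h the mean level of this list ranged from 3.50 to 4.52, on those of vehicle at 168 h from 3.03 to 3.43.

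Cytokine genes fell less with IGF1 than with vehicle in value (-1.78 against a median of -2.86, 7 of 17 with an unadjusted p below 0.05 for the difference). Il6 was at 2.91, 2.97, 2.94 and 2.64 at 48 h with vehicle and -0.77, -0.66, -0.05 and -1.11 at 168 h, so its change of -3.51 stood beside -0.94 with IGF1 (adjusted p of the difference 0.156), and the 168 h values of both treatments overlapped while the 48 h values with vehicle were all higher. Oncostatin M, Osm, changed by -2.86 and -1.16, and Il11 by -3.04 and -0.71. Hmox1, among the 10 genes with the smallest p for the difference, changed by -3.68 with vehicle and -2.47 with IGF1. Of the other genes of these 10, the C-type lectin Clec4n changed by -1.0 and 0.75, the lysosomal channel gene Mcoln2 by -1.38 and -0.23, Cyth4 by -0.61 and 0.11, Cd300a by -0.12 and 0.76, Cd300ld by -0.45 and 0.36, Dppa3 by -2.37 and 0.40 and Rtl5 by 0.58 and 1.29. The difference was positive for each of the 10.

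Interferon genes lay the other way. Of the 18 interferon gamma and MHC class I genes 18 rose with vehicle and 8 with IGF1 (medians 1.18 and 0.55, 9 with an unadjusted p below 0.05 for the difference). Of 21 type I genes 17 and 8 rose (0.96 and 0.46). With IGF1 the type I count was 17 as well without replicate 4 of 48 h, and it was above 8 within scan day 1. The interferon gamma count with IGF1 also moved between settings. The guanylate-binding GTPase gene Gbp2 was at 0.97, 0.60, 0.90 and 1.39 at 48 h and 1.61, 1.82, 1.43 and 1.51 at 168 h with IGF1, and at 1.02, 0.64, 0.58 and 0.35 and 3.74, 1.78, 1.78 and 2.76 with vehicle. Its change was 0.63 and 1.87 (difference -1.24, SE 0.43, adjusted p = 0.473), and Cxcl9 changed by 1.85 and 3.38. The collagen, mitosis and ribosome lists had close medians in both treatments, 1.56 and 1.68 for the collagens, -1.38 and -1.53 for mitosis and -1.01 and -1.0 for ribosome biogenesis, with an unadjusted p below 0.05 for the difference in 0 of 15, 0 of 26 and 0 of 20 genes. The late scar and cartilage matrix list lay further apart, at 3.31 with IGF1 and 2.87 with vehicle (without bounds), and 0 of its 17 genes had such a p. A p that misses the threshold does not show that the changes were equal.

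**Figure D4:**
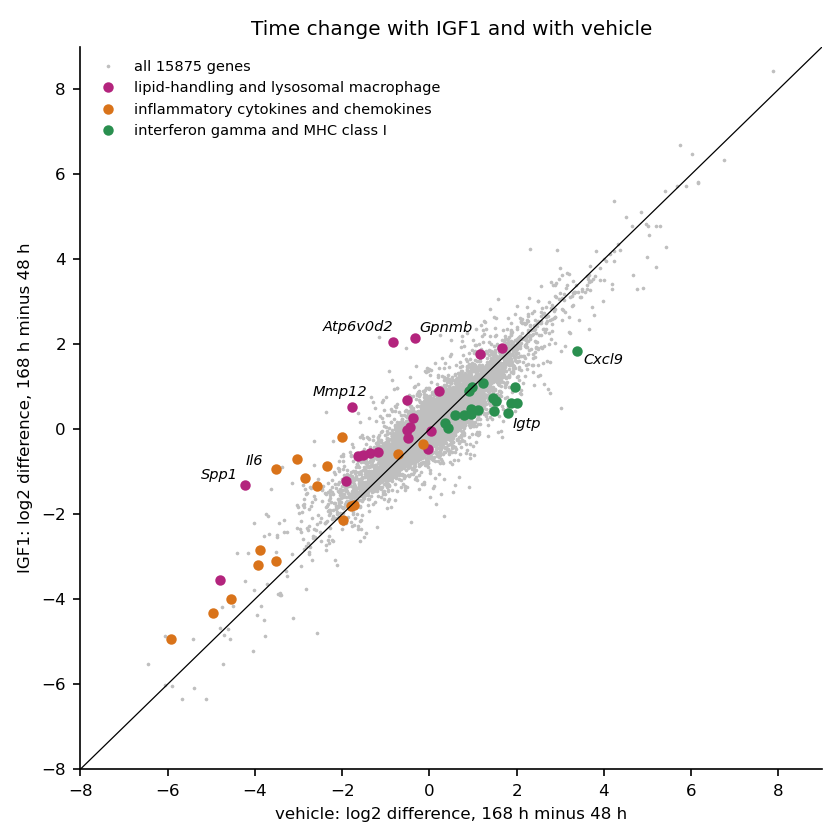
Log2 difference between 168 h and 48 h with IGF1 (vertical axis) against that with vehicle (horizontal axis) for 15875 genes; the line marks equal change. The macrophage genes Gpnmb and Atp6v0d2 and the cytokine gene Il6 lie above the line and most interferon gamma genes below it, with r = 0.915 over all genes.

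**Figure D5:**
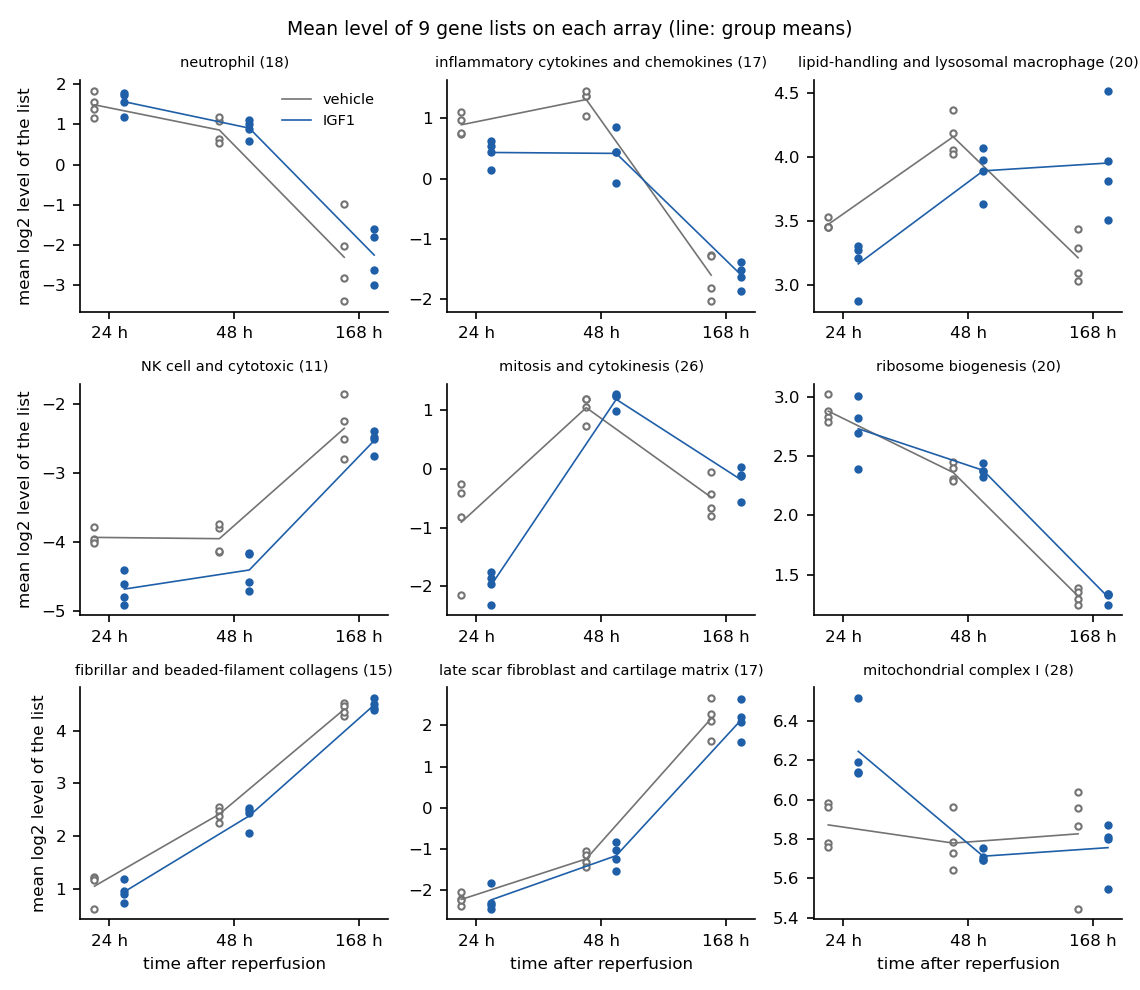
Mean log2 level of 9 gene lists (vertical axes) on each array at 24, 48 and 168 h for vehicle (open) and IGF1 (filled), with lines through group means. With IGF1 the neutrophil list fell from between 0.59 and 1.11 at 48 h to between -2.98 and -1.60 at 168 h, and the collagen list rose from between 2.06 and 2.53 to between 4.40 and 4.62.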

How the data were processed

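Whole-tissue RNA was labelled with Cy3 and hybridised to 24 one-colour Agilent SurePrint G3 Mouse 8x60K arrays, 4 in each of 6 groups, of which 8 are compared here and 8 vehicle arrays set beside them. The authors deposited each array's scanner output, and per the file headers the gProcessedSignal used is a background-subtracted intensity made by Feature Extraction (version 12.0.3.2). No spot was saturated (0), 53 to 130 outlier spots per array were left out, and 52.7 to 62.9% of probes were well above background, which limits precision for dim genes. The authors also deposited a table of log2 values, which differed from these arrays' values by no more than an SD of 2.61e-05 once each probe was centred (column medians -0.0557 to 0.0527); it served as an alternative. It thus holds the same 75th-percentile scaling, centred per probe.

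The log2 intensity minus the array's 75th percentile (528 to 887) was fitted with limma 3.58.1 in R 4.3.3, 1 mean per group over all 24 arrays and 18 residual degrees of freedom, and adjusted by Benjamini-Hochberg over 15875 genes at 0.05. A probe was kept if well above background on at least 4 arrays, and the brightest probe stood for a gene (5925 genes had several). Symbols came from RefSeq by accession for 33767 of 56605 probes (59.7%), the others being left out, and 24 genes lacked a value on some array. The fit was tested on simulated data. The files name an older build than the promoter table (GRCm38.p6), so the only coordinates given are those of the promoter windows in their own build.

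The comparison and the 54 lists (22 of cell types and 32 of processes; 941 genes, 883 measured) were chosen with earlier results of these data known. Named were the 15 largest changes in each direction and up to 4 genes per list with the smallest p. The 15 were taken only from genes past the threshold whose arrays of the 2 times did not overlap. The IGF axis and the 10 genes with the smallest p for the difference from vehicle were named as well. The other list members named as examples were chosen after their values were seen. Alternatives were normexp, quantile and another percentile, 2 filters, the mean of probes, the deposited table, slide, replicate and scan day blocks, array weights, the compared arrays only and leaving out each array.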

Additional observations from a re-analysis of the deposited data

Results flagged for a closer look

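In a group of 4 arrays an outlying one was marked where its gap to the nearest array was a larger share of the group's range than Dixon's critical value. Among 516 groups of the genes named and 108 of the list means, 28 and 5 were marked; chance marks about 1 in 20. For IGF1 48 h, replicate 1 was the outlying array of Siglecf (0.834, highest) and Stc2 (0.842, lowest), with the gap as a share of the range and the end in parentheses. Replicate 2 of IGF1 48 h was so for Mmp3 (0.831, lowest), Tnf (0.958, highest) and the mean of the fetal and stretch-responsive cardiac list (0.910, highest). Replicate 3 of IGF1 48 h stood apart for C1qa (0.837, highest), Dpt (0.888, highest), the mean of the epicardium and mesothelium list (0.884, highest) and the mean of the basement membrane list (0.967, lowest). Replicate 4 of IGF1 48 h lay off for Aldh1a2 (0.942, lowest), Atp6v0d2 (0.853, lowest), C3 (0.854, lowest), Comp (0.841, lowest), Dcn (0.870, lowest), Ednrb (0.846, lowest), Ifit3 (0.839, highest) and the mean of the mitosis and cytokinesis list (0.884, lowest). For IGF1 168 h, replicate 1 was the outlying array of Cdc20 (0.879, lowest), Cdkn1b (0.855, highest), Fbxo32 (0.843, highest), Gas6 (0.989, highest), Has2 (0.861, lowest), Insr (0.971, highest), Pvalb (0.847, lowest) and the mean of the ribosome biogenesis list (0.972, lowest). Replicate 2 of IGF1 168 h was so for Bcl2 (0.853, lowest), Manf (0.904, highest) and Sdf2l1 (0.843, highest). Replicate 3 of IGF1 168 h stood apart for Cstdc4 (0.907, highest) and Mmp14 (0.907, lowest). Replicate 4 of IGF1 168 h lay off for Cd3d (0.852, lowest), Gzma (0.908, highest) and Lum (0.843, highest). The replicates with the most marks were 4 of 48 h (8 marks) and 1 of 168 h (8 marks).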

How the results depend on the processing

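The count of genes higher at 168 h with IGF1 was 2405 with slide as a fixed block (as reported, 3758), where slide and time are nearly the same split. Within scan day 2, which holds 1 IGF1 array of 168 h whose spread is assumed like that of the others, 677 genes were higher and 705 lower with IGF1, and 1000 and 1311 with vehicle; fewer samples enter there, and the 3 scan day settings were chosen after seeing the data. Every other setting kept these 4 counts within 1.5 times. Leaving out each array in turn gave 3286 to 3543 higher and 3627 to 3869 lower genes with IGF1, and 3702 to 4284 and 3954 to 4242 with vehicle. For the difference between the time changes, array weights called 40 genes higher and 2 lower (the cause was not tested). Leaving out 1 array gave 0 to 15 higher and 0 to 0 lower: 15 without IGF1 168 h replicate 1, 2 without IGF1 48 h replicate 1, 1 without vehicle 168 h replicate 1. With the replicate block 3985 genes were higher and 4184 lower with IGF1; deviations of arrays sharing a number correlated at -0.075 to 0.0503, so the numbers do not pair the samples. Of 264 results for genes chosen by the naming rule, 138 kept their side of the threshold under all 13 planned and 3 added settings and every array left out. Those that passed also kept their direction. Direction was compared only where the reported value or the alternative passed. Among the results so compared 1 reversed. Adrb3, not well above background on any IGF1 array of 48 h, was 1.51 as reported. It was -0.27 with no filter on dim probes, where a different probe stood for the gene.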
